A study of Rattus norvegicus with 18 samples.

Results

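The genes described are 9 that build or steer the filtration slit of the podocyte, the epithelial cell that wraps the capillaries of the glomerulus: Nphs1, Cd2ap, Magi2, Podxl, Ptpro, Synpo, Actn4, Wt1 and Plce1. Every probe set that the platform annotation names for one of these genes was taken, which gave 14 probe sets for 8 genes out of 31042 probe sets on the array. No probe set of the annotation names Magi2, a scaffold protein of the slit diaphragm, and it has no value here. Of the 14 probe sets, 11 passed a filter that left out the dimmest probe sets by their mean over all arrays, and each of the 8 genes kept at least 1. The 3 left out stayed dim in all 18 rats, with intensities of 2.7 to 22.5 for Nphs1 (1369154_at), 3.2 to 34.2 for Podxl (1385823_s_at) and 6.7 to 28 for Wt1 (1369695_at).

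Kidneys came from 9 congenic S.SHR(2) rats and 9 Dahl salt-sensitive (Dahl S) rats, with 1 Affymetrix Rat Genome 230 2.0 array per rat. The labels give the Dahl S rats as SS/Jr, an inbred strain that develops hypertension and proteinuria, and the S.SHR(2) rats as congenic, made from SS/Jr and SHR/NHsd, so that both groups share the SS/Jr background outside the introgressed segment. The strain's name places that segment on chromosome 2, and none of the 9 genes lies there. According to the design text, males of 3 ages were used and had been tested for proteinuria, but no proteinuria value was used here.

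The arrays stand in the deposit as 3 successive blocks of 6, each with 3 S.SHR(2) and 3 Dahl S rats, and the change over these blocks was followed within each strain. A block is an order of deposit only. The labels give an age for just 2 rats, a Dahl S rat of the first block (4 weeks) and a Dahl S rat of the second block (12 weeks), both male and on a diet with 0.3% salt. What else a block stands for is not in the labels, so that age, diet, handling and date of processing cannot be told apart in any change over blocks. Rats are numbered 1 to 9 within a strain in order of deposit, with 1 to 3 in the first block, 4 to 6 in the second and 7 to 9 in the third.

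Podocytes end in interlocking foot processes joined by the slit diaphragm, a cell junction that holds back protein. Nephrin, the product of Nphs1, spans the slit, adaptors such as Cd2ap tie it to actin, and synaptopodin and alpha-actinin-4 organise the actin bundles of the foot process. Podocalyxin and the phosphatase Ptpro sit on the surface that faces the urine, Wt1 is the transcription factor that maintains the cell's identity, and Plce1 is a signalling phospholipase. Inherited defects in several of these genes cause proteinuria. Podocytes are a small part of the whole kidney, and in such bulk tissue fewer cells of a type and less RNA per cell cannot be told apart. Podxl is made by vascular endothelium as well, and Actn4 and Cd2ap by many cell types.

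All arrays carried the signal of whole kidney. Umod, made in the thick ascending limb, lay between 5258 and 7695.2, the proximal tubule phosphate transporter Slc34a1 between 4672 and 9492.5, and the collecting duct water channel Aqp2 between 1662.1 and 3594.1. Pairs of arrays correlated at 0.909 to 0.988 over the tested probe sets, and no arrays were identical. The ratio of the GAPDH 3′ to 5′ probe sets, which rises when RNA is degraded, was 1.27 to 2.509 in S.SHR(2) and 1.188 to 1.415 in Dahl S in the first block. In the second block it was 1.277 to 1.745 in S.SHR(2) and 1.323 to 2.04 in Dahl S, and in the third 1.505 to 1.537 in S.SHR(2) and 1.518 to 1.599 in Dahl S. The highest GAPDH values belonged to rat S.SHR(2) 1 and rat Dahl S 5. The same ratio of beta-actin was 3.107 to 6.828 in S.SHR(2) and 2.217 to 3.939 in Dahl S in the first block, and 3.454 to 4.665 in S.SHR(2) and 3.144 to 5.885 in Dahl S in the second. In the third block it was 2.27 to 3.004 in S.SHR(2) and 2.328 to 2.885 in Dahl S. The beta-actin ratio of the third block thus lay under that of the first in S.SHR(2), while the median GAPDH ratio was 1.522 in the third block and 1.412 in the first. Without the 2 arrays of highest GAPDH ratio, the calls of the F test over blocks given below for Podxl, Actn4 and Ptpro were kept; the part of the beta-actin ratio was not tested.

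Intensities below are the deposited values. Differences are on the scale of normalised log2(intensity + 16) with standard errors (SE), fitted with limma, and adjusted p values are from that fit by the Benjamini-Hochberg method over 18625 probe sets. A call is an adjusted p under 0.05. Each probe set hybridises in its own way, and levels of different probe sets are not compared. The number of arrays limits the precision.

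Podxl and Ptpro, the pair of apical surface genes, lie on the same chromosome and changed over the blocks in opposite directions in S.SHR(2), and for that reason their promoters are shown. They are the 250 bases before the RefSeq transcription start, from RefSeq with the build GRCr8. Capitals mark the GC box GGGCGG on either strand, where 2 of the matches overlap and run together. The Podxl promoter (chr4:61149132-61149381, minus strand) holds 7 matches and the Ptpro promoter (chr4:171895261-171895510, plus strand) none.
Podxl: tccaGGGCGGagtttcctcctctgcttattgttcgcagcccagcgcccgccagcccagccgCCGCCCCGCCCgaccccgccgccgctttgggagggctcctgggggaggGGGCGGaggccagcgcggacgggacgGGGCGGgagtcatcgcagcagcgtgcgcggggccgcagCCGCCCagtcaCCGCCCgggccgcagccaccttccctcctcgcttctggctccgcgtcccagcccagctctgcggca
Ptpro: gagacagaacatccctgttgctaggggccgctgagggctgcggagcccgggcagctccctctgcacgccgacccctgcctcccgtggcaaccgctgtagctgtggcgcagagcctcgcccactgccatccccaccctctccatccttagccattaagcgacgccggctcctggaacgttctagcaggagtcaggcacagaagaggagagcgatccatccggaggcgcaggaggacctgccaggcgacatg
G and C make up 76.4% of the Podxl promoter and 66% of the Ptpro promoter. GGGCGG occurs in 30.5% of the 33469 rat promoters of this length. Neither promoter holds GTGGGAG (7.51% of promoters) or GCGTGGGNG (1.46%), letter patterns of the kind bound by Wt1 and other zinc finger factors, searched on both strands. Among the other genes, the Synpo promoter holds 2 matches of GGGCGG and the Magi2 promoter 1 of GCGTGGGNG. A match describes letters and shows no binding, and the part of these letters in the changes over blocks was not tested. The promoters of Actn4 and Plce1 were not analysed here.

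Podxl, which encodes podocalyxin, the sialic acid-rich mucin that keeps foot processes apart, fell over the deposit blocks in both strains, to about 0.6 of its first-block level. Its brightest probe set (1369895_s_at) gave 626.4, 530.2 and 455.5 in S.SHR(2) and 483.7 to 521.7 in the 3 Dahl S rats in the first block. The values of the second block were 338.4, 337.8 and 351.5 in S.SHR(2) and 365.9, 392.5 and 382.4 in Dahl S, and those of the third 307.7, 282.5 and 359.4 in S.SHR(2) and 294.7, 303.4 and 298 in Dahl S. Every rat of the first block was thus above every rat of both later blocks, in both strains. The block means were 537.4 ± 85.68, 342.6 ± 7.742 and 316.5 ± 39.2 in S.SHR(2), and 499.5 ± 19.81, 380.3 ± 13.43 and 298.7 ± 4.392 in Dahl S (SD, n = 3 each).

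From the first to the third block the log2 difference of Podxl was −0.735 ± 0.108 in S.SHR(2) (limma adjusted p = 3.11e-05) and −0.753 ± 0.108 in Dahl S (limma adjusted p = 2.70e-05). Most of the difference in S.SHR(2) lay between the first and the second block (−0.603, limma adjusted p = 0.00117), and the third differed from the second by −0.132 (limma adjusted p = 0.431). In Dahl S both steps passed, with −0.401 (limma adjusted p = 0.0235) and −0.352 (limma adjusted p = 0.0252). The moderated F test over the 3 blocks gave limma adjusted p values of 5.20e-05 in S.SHR(2) and 8.94e-05 in Dahl S. It passed in both strains whichever of the 18 rats was removed.

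The second tested Podxl probe set (1387933_s_at) was dim and did not pass. It ranged from 12.3 to 50.2 in S.SHR(2) and from 18.1 to 60.3 in Dahl S, and its log2 difference from the first to the third block was −0.318 ± 0.229 in S.SHR(2) and −0.257 ± 0.229 in Dahl S (limma adjusted p = 0.316 and 0.459). In the fit without a filter on dim probe sets, the Podxl probe set otherwise left out (1385823_s_at) was called by the F test in Dahl S only. Its block means in Dahl S were 23.23, 18.03 and 7.5. Markers of endothelium, which also makes podocalyxin, moved with the brightest Podxl probe set. The summed intensity of 11 tested endothelial genes was 4795.9 to 4916.5 in S.SHR(2) and 5043.5 to 5079 in Dahl S in the first block, and 3082.1 to 3537.3 in S.SHR(2) and 3160.4 to 3567.6 in Dahl S in the third. The sums of the third block lay under those of the first in both strains. This was not particular to endothelium. The sum of 10 proximal tubule genes fell from 40833.8 to 42786.1 in the first block to 34770.5 to 38511.7 in the third in S.SHR(2). In Dahl S it fell from 39384.1 to 42010.1 to 31781.4 to 35722. Sums of loop, distal tubule and collecting duct genes fell too, and those of injury and immune genes rose. The part of these sums in the result for Podxl was not tested.

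Ptpro, a receptor tyrosine phosphatase of the foot process also known as GLEPP1, rose over the blocks in S.SHR(2). Its probe set (1368412_a_at) gave 174.8, 156.5 and 128.3 in S.SHR(2) and 142.2, 162.7 and 160.7 in Dahl S in the first block. Second-block values were 171.3, 169.2 and 160.4 in S.SHR(2) and 150.3, 145.2 and 136.5 in Dahl S, and those of the third 200.6, 182.7 and 236.1 in S.SHR(2) and 185.3, 161.3 and 185 in Dahl S. All S.SHR(2) rats of the third block were above all those of the earlier blocks, whereas in Dahl S the third and the first block overlapped. The block means were 153.2 ± 23.42, 167 ± 5.783 and 206.5 ± 27.18 in S.SHR(2), and 155.2 ± 11.3, 144 ± 6.978 and 177.2 ± 13.77 in Dahl S (SD, n = 3 each).

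The log2 difference of Ptpro from the first to the third block was 0.414 ± 0.122 in S.SHR(2) (limma adjusted p = 0.0140) and 0.162 ± 0.122 in Dahl S (limma adjusted p = 0.371). The F test gave limma adjusted p values of 0.0318 in S.SHR(2) and 0.287 in Dahl S. The call in S.SHR(2) was lost without rat S.SHR(2) 2, 3, 7 or 9, with limma adjusted p values of 0.0526 to 0.142. The strains were not shown to differ in this change (difference of the 2 changes 0.251 ± 0.173, limma adjusted p = 0.661).

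**Figure D1:**
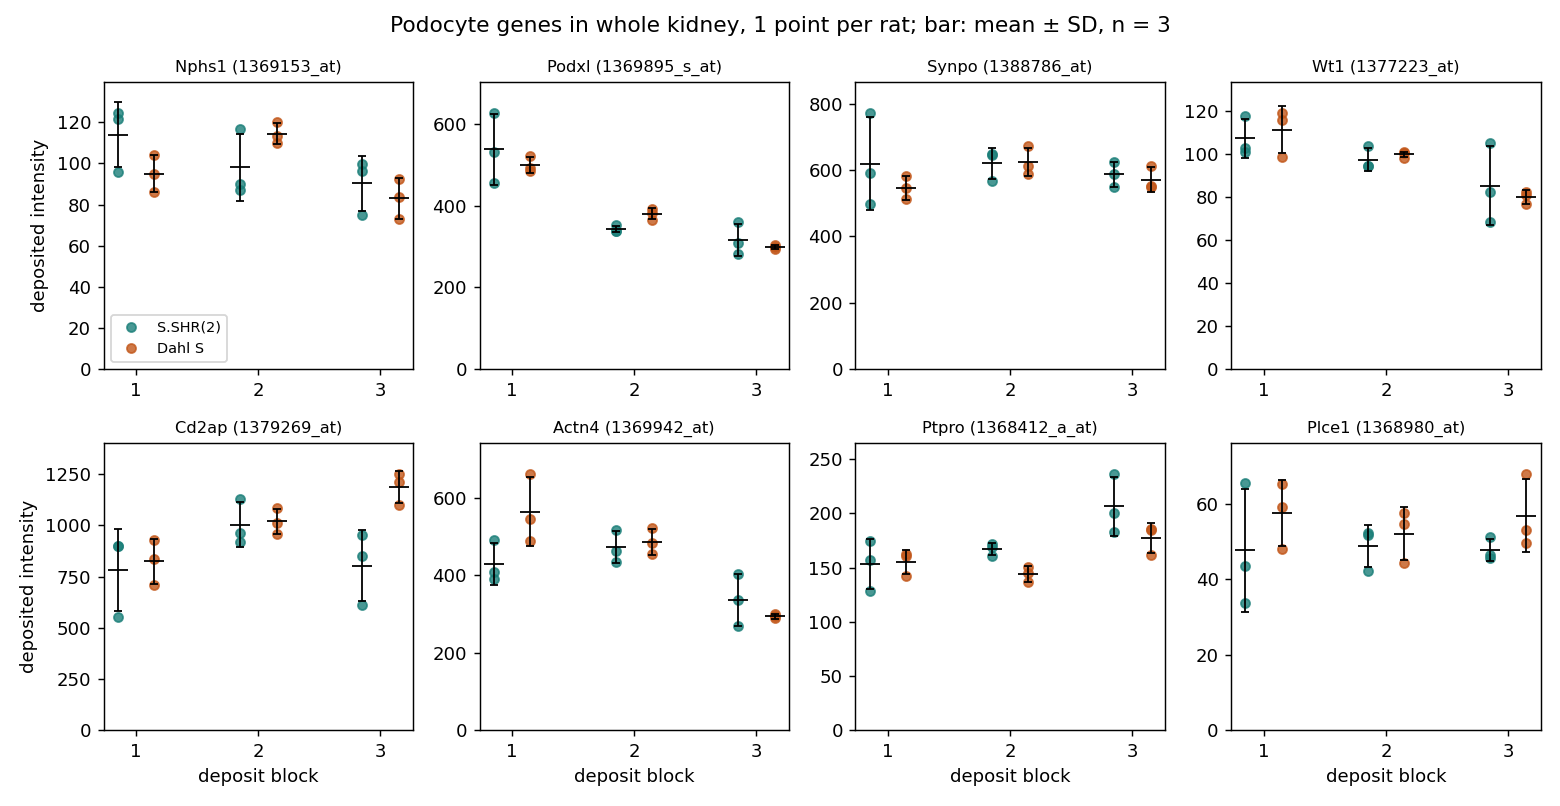
Deposited intensity (vertical axes, linear and starting at 0) of the brightest probe set of each of the 8 genes in every rat, by deposit block (horizontal axes), S.SHR(2) left of Dahl S, with bars for mean ± SD (n = 3). Podxl of the first block lies at 455.5 to 626.4 in S.SHR(2) and 483.7 to 521.7 in Dahl S, above both later blocks, and Cd2ap of the third block is higher in all 3 Dahl S rats than in any S.SHR(2) rat.

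In the plot of intensities by rat the spread within a block differs from gene to gene. Actn4 and Podxl are tight in the third block of Dahl S, while Cd2ap and Synpo scatter widely in the first block of S.SHR(2).

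Nphs1 encodes nephrin, the adhesion molecule that bridges the slit. Its tested probe set (1369153_at) gave 121.6, 95.9 and 124.5 in S.SHR(2) and 86, 95.1 and 104.1 in Dahl S in the first block. The values were 90.2, 116.8 and 87.2 in S.SHR(2) and 109.9, 113.4 and 120.2 in Dahl S in the second, and 99.9, 74.9 and 96.1 in S.SHR(2) and 83.8, 72.9 and 92.5 in Dahl S in the third. In Dahl S the second block was above both others without overlap, and in S.SHR(2) the blocks overlapped. The F test over blocks passed in neither strain (limma adjusted p = 0.318 in S.SHR(2) and 0.0542 in Dahl S). The dim Nphs1 probe set left out by the filter (1369154_at) did not move alike. Its block means were 8.133, 17.47 and 20.9 in S.SHR(2), and 16.03, 10.07 and 11.83 in Dahl S. In the fit without a filter its F test passed in neither strain. Whether such dim values lie above background was not tested.

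From the first to the third block the log2 difference of Nphs1 was −0.245 ± 0.140 in S.SHR(2) and −0.173 ± 0.140 in Dahl S (limma adjusted p = 0.197 and 0.407). The step from the second to the third block in Dahl S was −0.441 ± 0.140 (limma adjusted p = 0.0297). The F test in Dahl S passed when Dahl S 3 or S.SHR(2) 1, 2 or 5 was left out, at limma adjusted p values of 0.0441 to 0.0494.

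Cd2ap encodes an adaptor that binds the tail of nephrin and links it to actin and to endocytosis. In the first block its probe set (1379269_at) gave 552.4, 897.5 and 900.7 in S.SHR(2) and 710.4, 834 and 930 in Dahl S. In the second block it gave 964.6, 1129 and 920.1 in S.SHR(2) and 960.3, 1085.2 and 1013.1 in Dahl S, and in the third 849, 611.1 and 953.5 in S.SHR(2) and 1250.9, 1212.9 and 1098.1 in Dahl S. The strains overlapped in the first and second block, and in the third every S.SHR(2) rat was under every Dahl S rat. The third-block means were 804.5 ± 175.5 in S.SHR(2) and 1187 ± 79.55 in Dahl S (SD, n = 3 each).

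In Dahl S the comparison of the third with the first block was past the threshold for Cd2ap (0.536 ± 0.171, limma adjusted p = 0.0267), while the F test was not (limma adjusted p = 0.0572). In S.SHR(2) the same comparison gave 0.021 ± 0.171 (limma adjusted p = 0.943) and the F test a limma adjusted p of 0.136. The call of the pairwise comparison in Dahl S was lost without rat Dahl S 1, 2, 7 or 8, at limma adjusted p values of 0.0586 to 0.101. The F test in Dahl S passed when Dahl S 3 or S.SHR(2) 1, 3, 8 or 9 was left out (limma adjusted p = 0.0145 to 0.0487).

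Actn4, which encodes the actin crosslinker alpha-actinin-4, was lower in the third block than in the second in both strains. Its probe set (1369942_at) gave 389.8, 489.9 and 408.2 in S.SHR(2) and 661, 544.2 and 487.2 in Dahl S in the first block. In the second block the values were 463.4, 516.6 and 435.3 in S.SHR(2) and 521, 454.5 and 482.9 in Dahl S, and in the third 335.8, 403.8 and 269.5 in S.SHR(2) and 288.4, 299.9 and 293.8 in Dahl S. The third block was under the second without overlap in both strains. It was under the first block without overlap in Dahl S only, and in S.SHR(2) these ranges overlapped. Block means were 429.3 ± 53.28, 471.8 ± 41.29 and 336.4 ± 67.15 in S.SHR(2), and 564.1 ± 88.6, 486.1 ± 33.37 and 294 ± 5.754 in Dahl S (SD, n = 3 each).

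The log2 difference of Actn4 from the first to the third block was −0.371 ± 0.135 in S.SHR(2) (limma adjusted p = 0.0428) and −0.930 ± 0.135 in Dahl S (limma adjusted p = 3.10e-05). The step from the second to the third block passed in both, with −0.496 in S.SHR(2) (limma adjusted p = 0.0137) and −0.710 in Dahl S (limma adjusted p = 7.85e-04). F tests gave limma adjusted p values of 0.0176 in S.SHR(2) and 6.15e-05 in Dahl S. The F call in S.SHR(2) was lost without rat S.SHR(2) 9 (limma adjusted p = 0.127) and with arrays centred on their medians (limma adjusted p = 0.143), and the third-to-first call in S.SHR(2) failed in 10 of 18 fits with a rat removed, where the difference ran from −0.484 to −0.227. That comparison was called in 4 of 9 other settings, with limma adjusted p values up to 0.262 (−0.225, with arrays centred on their medians). From the first to the second block Actn4 differed by 0.126 in S.SHR(2) and −0.220 in Dahl S (limma adjusted p = 0.631 and 0.355). In Dahl S the F call of Actn4 held whichever of the 18 rats was removed.

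Synpo encodes synaptopodin, an actin-associated protein of the foot process, and its 3 probe sets did not move alike. The brightest (1388786_at) ranged from 496.8 to 771.3 in S.SHR(2), with a median of 589.7, and from 511.6 to 672.1 in Dahl S, with a median of 581.8. From the first to the third block it differed by −0.103 ± 0.118 in S.SHR(2) and 0.036 ± 0.118 in Dahl S (limma adjusted p = 0.545 and 0.861), the F tests gave limma adjusted p values of 0.652 and 0.503, and the sign in S.SHR(2) turned with arrays centred on their medians. The dim probe set 1394907_at ranged from 28.4 to 62.1 in the first and second block of S.SHR(2) and from 40.9 to 60 in those of Dahl S, and in the third block from 25.7 to 36.7 in S.SHR(2) and from 23.1 to 29.9 in Dahl S. The third-to-first difference was 0.033 ± 0.179 in S.SHR(2) and −0.498 ± 0.179 in Dahl S (limma adjusted p = 0.911 and 0.0486), and its F test passed in neither strain (limma adjusted p = 0.114 and 0.0662). The pairwise call in Dahl S was kept in 4 of 18 fits with a rat removed, with limma adjusted p values up to 0.202 (without Dahl S 1), and in 6 of 8 other settings. The F test of this probe set passed in Dahl S without S.SHR(2) 1 or 8 (limma adjusted p = 0.0454 and 0.0444) and in S.SHR(2) without S.SHR(2) 1 (limma adjusted p = 0.0485).

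Rats S.SHR(2) 1 and 7 gave the lowest values of the other dim Synpo probe set (1387501_at), 8.2 and 6.8, under the constant of 16 that was added before taking logs. The remaining S.SHR(2) rats gave 25.9 to 55.6, and the Dahl S rats 36 to 71. The third-to-first differences were −0.141 ± 0.306 in S.SHR(2) and 0.273 ± 0.306 in Dahl S (limma adjusted p = 0.765 and 0.565). With no detection calls used here, whether the dimmest values lie above background was not tested.

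Wt1 encodes a zinc finger transcription factor that drives podocyte genes, Nphs1 among them. Its tested probe set (1377223_at) gave 117.8, 101.1 and 103 in S.SHR(2) and 119, 98.8 and 115.8 in Dahl S in the first block. Those of the second were 94.2, 103.6 and 94.2 in S.SHR(2) and 100.4, 98.3 and 100.7 in Dahl S, and those of the third 104.9, 68.6 and 82.2 in S.SHR(2) and 76.6, 82.4 and 81 in Dahl S. The third block of Dahl S was under both other blocks without overlap, whereas in S.SHR(2) rat 7 of the third block lay within the range of the first. The third-to-first difference was −0.245 ± 0.133 in S.SHR(2) (limma adjusted p = 0.175) and −0.411 ± 0.133 in Dahl S (limma adjusted p = 0.0291). The F test passed in neither strain (limma adjusted p = 0.321 in S.SHR(2) and 0.0512 in Dahl S). The pairwise call in Dahl S was lost without rat Dahl S 1, 3, 7 or 9 (limma adjusted p = 0.0700 to 0.0979) and with arrays centred on their medians (limma adjusted p = 0.0565). The F test in Dahl S passed when Dahl S 2 or S.SHR(2) 1, 7 or 8 was left out (limma adjusted p = 0.0380 to 0.0432).

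Plce1 encodes phospholipase C epsilon, which acts downstream of Ras-family GTPases. Its probe set (1368980_at) ranged from 33.8 to 65.6 in S.SHR(2), with a median of 46.4, and from 44.3 to 67.9 in Dahl S, with a median of 54.6. The strains and the blocks overlapped throughout. The third-to-first differences were 0.157 ± 0.180 in S.SHR(2) and −0.010 ± 0.180 in Dahl S (limma adjusted p = 0.549 and 0.977).

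**Figure D2:**
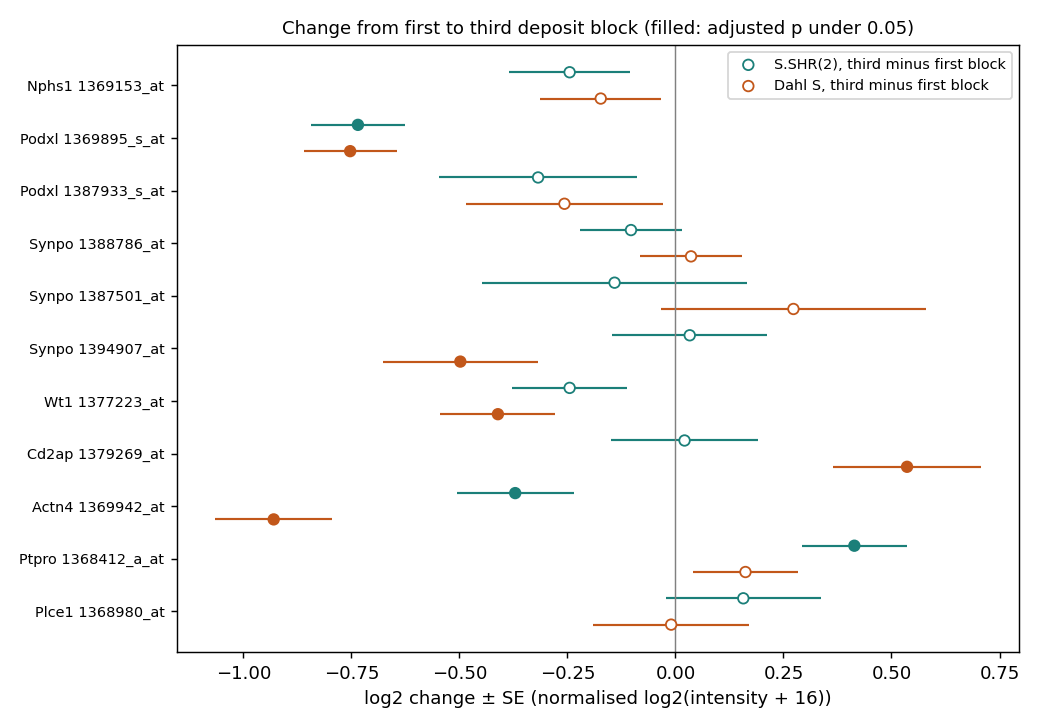
Log2 difference of the third minus the first deposit block (horizontal axis, points with SE bars) for the 11 tested probe sets, S.SHR(2) above Dahl S, filled where the adjusted p was under 0.05. The bright Podxl probe set is filled at −0.735 in S.SHR(2) and −0.753 in Dahl S, Actn4 at −0.371 and −0.930, and Ptpro at 0.414 in S.SHR(2) alone. Filled in Dahl S alone are Cd2ap at 0.536, Wt1 at −0.411 and Synpo 1394907_at at −0.498.

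Each count of calls is given beside the share of all tested probe sets, and the plot of the third-to-first differences holds both directions. By the F test over blocks 3 of the 11 probe sets were called in S.SHR(2), those of Podxl, Actn4 and Ptpro, where 33.1% of all tested probe sets were called. In Dahl S the F test called 2 of the 11, those of Podxl and Actn4, against 29.6% of all. From the first to the third block in S.SHR(2), 2 were called lower, against 15.1% of all, and 1 higher, against 15.4%. In Dahl S, 4 were called lower, against 12.3% of all, and 1 higher, against 11.5%. The median difference of the 11 was −0.141 in S.SHR(2), where the median of all probe sets was 0.007, and −0.173 in Dahl S, where it was 0.010. Calls over the blocks were common among all probe sets measured. The calls of 1 comparison share their 3 rats per block, and Synpo 1394907_at and Wt1, which are among the 4 called lower in Dahl S, lost that call in fits named above.

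No probe set of these genes was called between S.SHR(2) and Dahl S over all 18 rats. That fit left the variation over blocks in its error, so the lack of a call does not show that the strains were alike. Of the 11, 0 were called by limma, against 0.123% of all tested (23 of 18625), and at an unadjusted p under 0.05 there was 1, against 748 of all. That one was the dim Synpo probe set 1387501_at (−0.468 ± 0.196, unadjusted p = 0.0267 in the limma fit, limma adjusted p = 0.9995). Means over 9 rats were 100.8 ± 16.83 in S.SHR(2) and 97.54 ± 15.5 in Dahl S for Nphs1 (SD). The log2 difference between the strains was 0.073 ± 0.101 for Nphs1 and 0.139 ± 0.092 for Ptpro. It was 0.008 ± 0.152 for the bright Podxl probe set, 0.049 ± 0.073 for the bright Synpo probe set and 0.031 ± 0.096 for Wt1, and under alternative settings the signs of Podxl and Wt1 turned. Cd2ap differed by −0.252 ± 0.132, Actn4 by −0.083 ± 0.160 and Plce1 by −0.124 ± 0.099. With the deposit block as an additive term 0 of the 11 were called by limma, and the limma adjusted p of Cd2ap was 0.473. The share of all tested probe sets called with the block term was not recorded, so nothing further is read from that 0. Without the block term limma adjusted p values were 0.9995 for all 11, and the ranges of the strains overlapped for each.

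Within blocks the strains likewise gave no call for these genes. In the first block 0 of 11 were called by limma, against 0.161% of all. At an unadjusted p under 0.05 there was 1, against 1928 of all 18625. That was Actn4, at −0.385 ± 0.135 (unadjusted p = 0.00988 in the limma fit, limma adjusted p = 0.353), with 389.8 to 489.9 in S.SHR(2) overlapping 487.2 to 661 in Dahl S. In the second block 0 were called by limma, against 0.123% of all, and 0 had an unadjusted p under 0.05, against 589 of all. Ranges stood apart there for Ptpro (0.192 ± 0.122), the bright Podxl probe set (−0.133 ± 0.108) and the Synpo probe set 1394907_at (0.217 ± 0.179), each at a limma adjusted p of 0.9997. The share of all tested probe sets with ranges apart was not counted, so nothing is read from these.

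The third block held the 2 largest strain differences among the 11 probe sets in that fit. By limma 0 were called, against 0.338% of all, and 2 had an unadjusted p under 0.05, against 1932 of all 18625. Cd2ap was at −0.624 ± 0.171 (unadjusted p = 0.00153 in the limma fit, limma adjusted p = 0.138) and the dim Synpo probe set 1387501_at at −0.876 ± 0.306 (limma adjusted p = 0.292), and the ranges of the strains stood apart for both. For this block too, the share of all tested probe sets with ranges apart was not counted. The result for Cd2ap changed with the rats and weights used. It was called without rat S.SHR(2) 1 (limma adjusted p = 0.0422), without rat S.SHR(2) 9 (limma adjusted p = 0.0483), with array weights (limma adjusted p = 0.00366) and in a fit that dropped rats S.SHR(2) 1 and Dahl S 5 (limma adjusted p = 0.0407), which was added with the values known. In the same block the summed intensity of 8 markers of tubular injury was 7852 to 11158.3 in S.SHR(2) and 12465.9 to 14244.9 in Dahl S, without overlap. These sums stood apart in the second block as well, at 4947.4 to 5848.9 in S.SHR(2) and 6383.8 to 7002.9 in Dahl S. There Cd2ap differed by −0.023. In the third block the sums of mesangial genes and of family relatives of the 9 genes were also apart, lower in S.SHR(2). The part of these sums in the difference of Cd2ap was not tested.

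**Figure D3:**
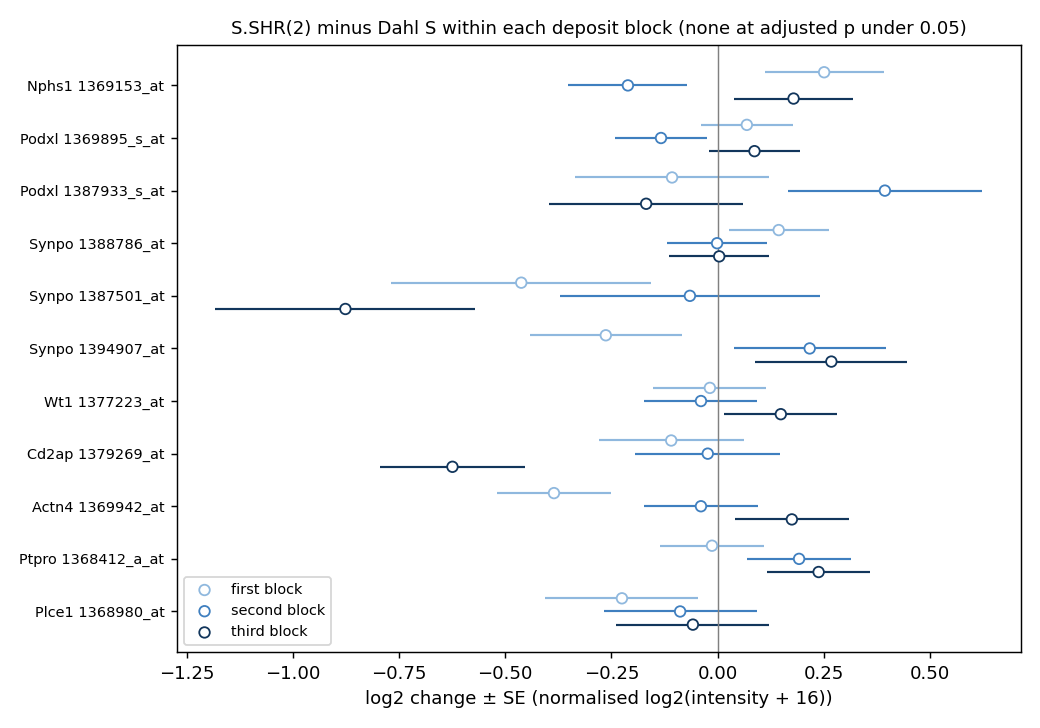
Log2 difference of S.SHR(2) minus Dahl S (horizontal axis, points with SE bars) within the first, the second and the third deposit block (light to dark) for the 11 tested probe sets. Cd2ap lies at −0.109 in the first block, −0.023 in the second and −0.624 in the third, and no point is past an adjusted p of 0.05.

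Whether the change over blocks differed between the strains was tested as an interaction. Its F test called 0 of the 11 by limma, against 0.00537% of all (1 of 18625). At an unadjusted p under 0.05 there were 2, against 1221 of all. These 2 were Actn4 (0.0266 in the limma fit) and Cd2ap (0.0450). The third-to-first difference in S.SHR(2) minus that in Dahl S was 0.559 ± 0.191 for Actn4 (limma adjusted p = 0.417) and −0.516 ± 0.242 for Cd2ap (limma adjusted p = 0.529). For Podxl it was 0.018 ± 0.153 (limma adjusted p = 0.981). The plot of strain differences by block shows the gap for Cd2ap in the third block. Calls in 1 strain alone, such as that of Ptpro, are therefore not shown to be differences between strains.

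Other genes of the podocyte and its basement membrane were counted in a list of 40, of which 28 were tested, each by its brightest probe set. Over genes, 13.0% of the 10483 tested were called lower and 15.6% higher from the first to the third block in S.SHR(2), and 10.9% lower and 11.8% higher in Dahl S. In S.SHR(2) 4 of the 28 were called lower and 1 higher, with a median difference of −0.09. In Dahl S 4 were lower and 0 higher (limma), with a median of −0.14. The 8 genes themselves gave 2 lower and 1 higher in S.SHR(2), with a median of −0.17, and 3 lower and 1 higher in Dahl S, with a median of −0.09. Between the strains 0.0763% of all genes were called, and 0 of the 28 (limma).

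Col4a5, a type IV collagen chain of the glomerular basement membrane, was lower in the third than in the first block, by −0.80 ± 0.10 in S.SHR(2) (limma adjusted p = 5.06e-06) and −0.53 ± 0.10 in Dahl S (limma adjusted p = 5.73e-04). Lamb2, the laminin beta 2 chain of the same membrane, fell by 0.387 ± 0.117 in S.SHR(2) and by 0.390 ± 0.117 in Dahl S (limma adjusted p = 0.0158 and 0.0189). Cdkn1c, a cell cycle inhibitor of mature podocytes, gave −0.21 ± 0.11 in S.SHR(2) (limma adjusted p = 0.155) and −0.451 ± 0.109 in Dahl S (limma adjusted p = 0.00436). Tcf21, a transcription factor of podocytes and stroma, passed by the F test in Dahl S (limma adjusted p = 0.00191) and not in S.SHR(2) (limma adjusted p = 0.245). The other third-to-first calls of this list were seen only after its values were known. Thsd7a, a podocyte surface protein, was at −0.765 in S.SHR(2) and −0.855 in Dahl S (limma adjusted p = 0.0167 and 0.0103). Tjp1, the tight junction protein ZO-1 of the slit, was called lower in S.SHR(2) (−0.343, limma adjusted p = 0.00800), and the polarity protein Pard3 was called higher in S.SHR(2) (0.424, limma adjusted p = 0.0471). The F test in Dahl S also called Rhpn1 and Efnb1 (limma adjusted p = 0.0250 and 0.0400). Their third-to-first differences in Dahl S, 0.184 and −0.207, were not called. The nephrin relatives Kirrel1 and Kirrel2 are not named by the annotation used here and have no value.

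Genes related to the 9 by family were tested for 12 of 16 listed. In S.SHR(2) 4 were called lower and 1 higher, and in Dahl S 1 lower and 1 higher. The scaffold Magi1, a relative of Magi2, rose from the first to the third block by 1.055 ± 0.109 in S.SHR(2) and 0.915 ± 0.109 in Dahl S (limma adjusted p = 3.60e-07 and 2.73e-06). Ptprb, an endothelial phosphatase of the same class as Ptpro, was lower by −0.747 in S.SHR(2) and −0.631 in Dahl S (limma adjusted p = 0.00154 and 0.00697).

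Marker lists of other cell types moved over the blocks as well. Of 8 tubular injury genes, 5 were called higher in S.SHR(2) and 7 in Dahl S, led by Havcr1, the kidney injury molecule KIM-1, at 3.109 ± 0.287 in S.SHR(2) and 4.662 ± 0.287 in Dahl S (limma adjusted p = 6.86e-08 and 3.23e-10). Their summed intensity in the first block was 2671.6 to 4311 in S.SHR(2) and 3927.1 to 5113.3 in Dahl S, under that of the third block given above. Of 5 tested immune genes 4 were called higher in S.SHR(2) and 3 in Dahl S. Of 11 endothelial genes 6 were called lower in S.SHR(2) and 7 in Dahl S, with medians of −0.38 and −0.59, led by Plvap, a protein of endothelial diaphragms (−0.955 in S.SHR(2) and −1.218 in Dahl S). Their part in the changes of Podxl, Actn4 and Ptpro was not tested.

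The remaining lists held genes that were called in either direction, some of them with large differences. Mesangial genes gave 1 lower of 7 tested in S.SHR(2) and 0 calls in Dahl S by limma, with medians of −0.27 and −0.24. Parietal epithelium gave 2 lower and 2 higher of 7 in S.SHR(2), and 2 lower and 3 higher in Dahl S, among them the adhesion receptor Cd44 at 1.365 in S.SHR(2) and 2.304 in Dahl S (limma adjusted p = 1.41e-06 and 1.49e-09). Among 10 proximal tubule genes 1 was lower and 2 higher in S.SHR(2), and 1 lower and 1 higher in Dahl S. Loop, distal tubule and collecting duct genes gave 2 lower and 3 higher of 10 in S.SHR(2), and 5 lower and 2 higher in Dahl S, among them the calcium-binding protein Calb1 at −1.460 in S.SHR(2) and −1.309 in Dahl S (limma adjusted p = 7.96e-10 and 5.00e-09). Of 7 matrix genes 2 were lower and 1 higher in S.SHR(2), and 3 lower and 0 higher in Dahl S (limma). By limma 0 genes of any list were called between the strains.

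**Figure D4:**
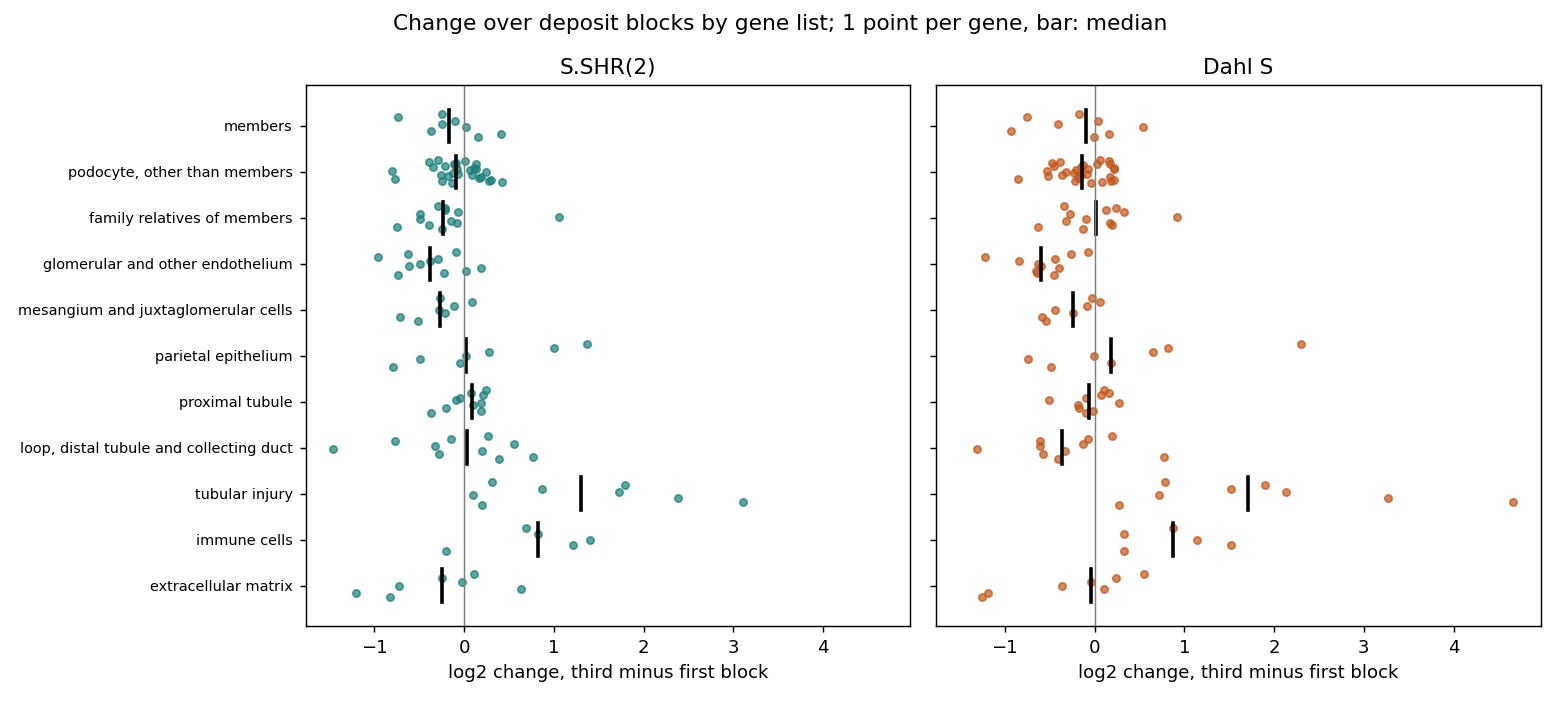
Log2 difference of the third minus the first deposit block (horizontal axes) for each tested gene of each list (1 point per gene, black bar the median), S.SHR(2) in the left panel and Dahl S in the right. The 8 podocyte genes described here scatter about medians of −0.17 in S.SHR(2) and −0.09 in Dahl S, the injury genes about 1.30 and 1.71, and the endothelial genes about −0.38 and −0.59.

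In the plot of differences by list the 8 genes ran to both sides of 0 in each strain, while the injury genes all lay above 0 and most endothelial genes below it.

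Correlations over the 18 rats describe how the genes varied together, and the points share strain and block, so that any 2 genes that move with the blocks correlate. Nphs1 correlated with Wt1 at a Pearson r of 0.626, and at 0.484 after strain and block means were taken out. With Podxl the values were 0.433 and 0.067. Podxl and Wt1 gave 0.724 over all rats and 0.175 within groups, and Podxl and Ptpro −0.43 over all rats and 0.732 within groups. The last pair therefore differs in sign between the 2 measures.

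Among tested genes outside the group, the 8 most like Nphs1 over the 18 rats by Pearson r were Zdhhc5 (0.78), Xpo7 (0.77), Rars2 (0.768), Anks1b (0.768), Usp1 (0.752), Smlr1 (0.749), Zfp821 (0.741) and Hykk (0.727). Within strain and block their r lay between 0.417 and 0.689. The 3 least like were Crip1 (−0.782), Mfap4 (−0.785) and S100a4 (−0.798). Wt1, at 0.626, stood below all 8 of the first group. These genes were picked as the extremes among all those tested, and the values are given as a description.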

How the data were processed

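Total RNA of whole kidney from 18 male rats was profiled on 1 array per rat; sex is per the design text, and strain was taken from the labels. The authors deposited linear intensities, 1 for each probe set of an array; software, background correction and scaling are not given in the sources used here. Every array had a 2% trimmed mean of 150.046 to 150.054, and 39 values were 0. Detection calls and probe sequences were not used.

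Without the 57 controls there were 31042 probe sets. Values were taken as log2(intensity + 16), so that a difference understates the change of dim genes. Array medians spanned 0.235, above a limit of 0.2, and arrays were quantile normalised. The dimmest 40% of probe sets (mean under 5.48) were left out and 18625 tested with limma 3.58.1 (R 4.3.3), lmFit and eBayes with trend, two-sided, with Benjamini-Hochberg adjustment over all. Strains were compared 9 against 9. A second fit of 6 groups (strain by deposit block, 3 rats each) gave the strain difference within blocks, the F test over blocks in each strain, the pairwise block differences and the interaction. Rats are the replicates. The annotation, which can be old, names 1 gene for 20826 probe sets, several for 436 and none for 9780. A gene outside the 9 is represented by its brightest tested probe set.

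The genes, the lists and the tests were chosen with earlier results of these data known. Named from each list were up to 4 genes by smallest block p and up to 2 by smallest strain p, with Lamb2 in any case, and the genes most and least like Nphs1; not all are described. The alternatives tried were a pseudocount of 1 or 64, a 60% filter or none, unnormalised values, median centring, eBayes without trend, array weights and each rat left out. For the strain difference over all rats, the deposit block as an additive term and adjustment over genes were tried as well. They were run for the 9 genes only. A fit without the 2 arrays of highest GAPDH ratio was added after the data were seen. The fits were tried on simulated data in 3 runs, with independent noise and 200 changed probe sets. For the strain comparison no variation over blocks was simulated, so those runs do not measure its power in these data. Figures were drawn with matplotlib 3.10.9.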

Additional observations from a re-analysis of the deposited data

How the results depend on the processing

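The counts of 0 called probe sets between the strains over all rats held under 11 alternatives, the deposit block as an additive term and adjustment over genes among them, and that for the interaction under 9, and both held in all 18 fits without 1 rat. Within blocks the strain difference, with 0 calls, gave 2 with array weights (Cd2ap and Synpo 1387501_at), 1 without the 2 arrays of highest GAPDH ratio (Cd2ap), and 0 to 1 when 1 rat was left out. The F test in Dahl S called 2, and 4 with a pseudocount of 64, 4 of the 7 left with the 60% filter, 5 with eBayes without trend, 6 with array weights and 2 to 6 without 1 rat (4 without Dahl S 3, 6 without S.SHR(2) 1, 5 without S.SHR(2) 8). The F test in S.SHR(2) called 3, and 6 with array weights and 1 to 4 without 1 rat (1, Podxl, without S.SHR(2) 9). The share of all tested probe sets called under each alternative was not recorded. Nothing about these genes is therefore read from the changes in these counts. Podxl was called in both strains, and Actn4 in Dahl S, under all 9 alternatives and all 18 fits. Signs turned for small differences that were not called. The strain difference of Podxl was −0.007 with array weights, −0.072 without the high-GAPDH arrays and −0.072 to 0.066 without 1 rat. That of Wt1 was −0.003 with a pseudocount of 64, −0.005 as deposited and −0.007 to 0.065 without 1 rat. From the first to the third block in S.SHR(2), Synpo gave 0.069 with arrays centred on medians, 0.048 without the high-GAPDH arrays and −0.233 to 0.047 without 1 rat, Cd2ap −0.063 with array weights, −0.216 without those arrays and −0.215 to 0.23 without 1 rat, and Plce1 −0.021 to 0.383 without 1 rat. In Dahl S, Synpo gave −0.01 to 0.074 without 1 rat, and Plce1 0.007 with arrays centred on medians and −0.113 to 0.053 without 1 rat. The cause was not tested. No paired analysis was possible because the labels give no replicate numbers that the strains share. Signal over background was not measured, which limits the dim probe sets of Synpo, Podxl and Plce1.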
